A study of Rattus norvegicus with 6 samples.

Results

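The genes described here are 10 regulators of nephron progenitors and early nephrons, namely Six2, Cited1, Eya1, Osr1, Sall1, Pax2, Pax8, Fgf8, Lhx1 and Dll1. They were read from the array probes, controls left out, that carry these gene names. Of the 10 genes, 9 had a probe, each with 1 probe and 1 spot per array, and all 9 passed the filter on dim probes, as did 12830 named genes in all. Eya1, the phosphatase that works with Six2, had no probe under its name. A probe whose description reads as similar to eyes absent 1 lies outside the rule, and it was not well above background on any of the 6 arrays in either colour.

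In the developing kidney, progenitors of the cap mesenchyme sit around the tips of the branching ureteric bud. Six2, Osr1, Sall1, Eya1 and Cited1 mark or maintain them, and Pax2 and Pax8 act in the progenitors, the ureteric epithelium and the forming nephron. When a part of the cap is induced it turns into a renal vesicle under the signals Wnt4 and Fgf8, switches on Lhx1, and is then patterned into segments with the help of the Notch ligand Dll1. In rats new nephrons still form in the first days after birth, and the progenitors are lost once nephron formation ends.

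The tissue was whole left kidney of Han:SPRD rats of 3 and 7 days. Han:SPRD carries the Cy allele, a missense change in Anks6 that gives cystic kidneys, with slow disease in Cy/+ and early severe disease in Cy/Cy animals. Kidney RNA pooled by genotype (+/+, Cy/+ or Cy/Cy) was labelled with Cy5, and each pool was hybridised together with a Cy3-labelled +/+ pool of the same age, which served as the reference. Each genotype thus had 1 array per age, and n = 2 arrays per genotype in every comparison of genotypes. The labels give neither the number of animals in a pool nor whether 1 Cy3 pool served all 3 arrays of an age. P-values therefore reflect only how these arrays differ, which may be technical. In the tests of Cy/+ and Cy/Cy against the reference, and against each other, the 2 arrays of a genotype are of different ages. No age term was used there, so the spread also holds any change of the ratio with age. All 3 arrays of an age lay on 1 slide and each genotype kept 1 position, so age and slide, and genotype and position, cannot be told apart. The reference was Cy3 on every array. A difference of a gene between the dyes thus cannot be told apart from a difference between a mutant pool and its reference. In whole kidney, fewer cells of a type and less RNA per cell cannot be told apart either.

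The arrays labelled +/+ went against their label. On them 24.3% of genes at 3 days and 19.7% at 7 days stood at least 2-fold from the reference, against 0.0936% to 1.35% on the 4 mutant arrays. On the 3-day and then the 7-day array, the liver genes listed had median log2 ratios of 5.15 and 4.85 and skeletal muscle genes of 4.36 and 3.95, both higher in Cy5. Genes of the proximal tubule were lower, at −2.88 and −2.33. The Cy5 values of these 2 arrays were therefore left out of the tests of age and of genotype, and are given on their own. They still entered the normalisation of the levels used for age. Their Cy3 values correlated with Cy3 of the mutant arrays of the same age at 0.983 to 0.988 across genes, against 0.998 at 3 days and 0.999 at 7 days between mutant arrays. The summed Cy3 level of 8 skeletal muscle genes was 26800 at 3 days and 51500 at 7 days on the arrays labelled +/+, against 1260 to 1280 and 1730 to 1770 on the mutant arrays. The limma test of age was therefore also computed without this Cy3. The 2-fold rule for the reference, given further below, was not.

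Each probe is 60 bases long and reads a short stretch of its transcript. The sequences are those of the array design, shown 5′ to 3′ because every value below rests on them. Capitals mark the longest run that a probe shared, in the same orientation, with a probe of another name on the array. That run was 13 bases long for 7 of the 8 probes shown and 14 for Pax2, so none of these 8 shared a long stretch with another probe. The Dll1 probe is shown up to the first stop codon in its longest open frame.
Six2: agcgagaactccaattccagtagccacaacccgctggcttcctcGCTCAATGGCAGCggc
Cited1: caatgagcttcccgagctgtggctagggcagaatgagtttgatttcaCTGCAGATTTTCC
Osr1: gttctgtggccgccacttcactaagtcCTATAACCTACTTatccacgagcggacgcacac
Sall1: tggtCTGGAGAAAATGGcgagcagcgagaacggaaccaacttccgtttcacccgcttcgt
Pax2: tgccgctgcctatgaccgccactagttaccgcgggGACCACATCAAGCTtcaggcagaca
Fgf8: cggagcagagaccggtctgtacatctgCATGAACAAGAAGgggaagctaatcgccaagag
Lhx1: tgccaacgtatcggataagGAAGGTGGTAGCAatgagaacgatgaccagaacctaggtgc
Dll1: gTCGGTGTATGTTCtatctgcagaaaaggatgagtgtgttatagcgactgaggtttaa

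By the coordinates in the file headers (rat build rn3), the probes lie at chr6:9095355-9095414 for Six2, chrX:90374588-90374647 for Cited1, chr6:33077936-33077995 for Osr1 and chr19:19298034-19298093 for Sall1. The Pax probes lie at chr1:250155734-250155793 for Pax2 and chr3:2672161-2672220 for Pax8. Those of the induced nephron lie at chr10:72817272-72817331 for Lhx1, chr1:251211881-251212838 for Fgf8 and chr1:54243701-54243856 for Dll1. The Fgf8 span covers 958 bases and the Dll1 span 156, both longer than the probe. An annotation of exons in this build was not used here.

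The question of the comparison of ages was how these genes stood at 3 and at 7 days of life, while nephrons are still being made. Fgf8, Dll1, Pax2 and Pax8 rose between the ages, by 0.43 to 1.00 on the log2 scale, and none of the 9 genes fell. Six2, Cited1, Osr1 and Sall1, the genes of the uninduced progenitor, did not pass the test. Levels below are log2 of the normalised signal of 1 channel, and the change was tested with limma over 3 pools (the +/+ reference, Cy/+ and Cy/Cy), each seen at both ages. At an adjusted p under 0.05, 3.78% of the 12816 genes tested were higher at 7 days and 3.33% were lower, 7.11% in all. Among the members 4 of 9 were higher and 0 lower, and their median change was 0.43, against −0.0022 over all genes.

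Six2, the factor that keeps cap mesenchyme cells from differentiating, gave weak signals. In the reference its levels were 6.42, 6.57 and 6.54 at 3 days, in the order of the arrays labelled +/+, Cy/+ and Cy/Cy, and 6.70, 6.80 and 6.76 at 7 days. In the Cy/+ pool it read 6.58 and then 6.88, and the Cy/Cy pool 6.69 and then 6.65. Between the ages the reference values did not overlap, but the Cy/Cy pool was slightly lower at 7 days. The change over the 3 pools was 0.17 ± 0.09 (SE) with an adjusted p of 0.268 (limma). The raw Cy3 signal of the Six2 spot was only 75.2 to 85.2 against a local background of 34 to 43. It was 78.2, 83.3 and 85.2 at 3 days and 75.7, 75.2 and 77.2 at 7 days. The higher 7-day reference is thus seen only after normalisation. The offset of 50 added to all signals narrows changes of such dim spots. With an offset of 16 the change was 0.25 (adjusted p = 0.216), and with the software's signals 0.51 (adjusted p = 0.222).

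Cited1, a transcriptional co-activator found in the youngest cap cells, was read far above background on every array. Its reference levels were 11.22, 11.31 and 11.25 at 3 days and 11.35, 11.42 and 11.41 at 7 days. The Cy/+ pool read 11.89 and then 11.82, above all 6 reference values, and the Cy/Cy pool read 11.10 and then 11.45. The reference was higher at 7 days with no overlap, yet only by 0.13, and Cy/+ moved the other way. Raw Cy3 was lower at 7 days, 1490 on each array against 2150 to 2490 at 3 days. The rise in the reference is thus seen only after normalisation. The change over the pools was 0.14 ± 0.10 (adjusted p = 0.396).

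Osr1, a zinc finger factor of the intermediate mesoderm and of early progenitors, stood close to background. It was not well above background in Cy3 of the 3-day Cy/+ and Cy/Cy arrays, where it read 6.50 and 6.53, while the third 3-day reference value was 6.46. At 7 days the reference read 6.74, 6.57 and 6.64. Raw Cy3 was lower at 7 days, 70.6 to 75.3 against 78.5 to 82.8. Cy/+ gave 6.82 and then 6.52, and the Cy/Cy pool 6.60 and then 6.68. The pools thus moved in different directions, and the change was −0.02 ± 0.11 (adjusted p = 0.904).

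Sall1, a zinc finger repressor needed for the outgrowth of the ureteric bud and kept on in progenitors, held nearly the same level in all mutant and reference values. In the reference it read 10.54, 10.73 and 10.65 at 3 days and 10.47, 10.70 and 10.65 at 7 days. Raw Cy3 was 1430 to 1660 at 3 days and 887 to 916 at 7 days, so the reference is level only after normalisation. Cy/+ gave 10.43 and then 10.57, and the Cy/Cy pool 10.73 and then 10.61. The values of the ages overlapped, and the change was −0.005 ± 0.08 with a 95% interval of −0.20 to 0.19 (adjusted p = 0.971).

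Pax2, a paired-box factor of the kidney lineage, rose by 0.49 ± 0.09 on the log2 scale, or 1.40-fold (adjusted p = 0.0368). Its reference levels were 7.12, 7.72 and 7.74 at 3 days and 7.66, 8.33 and 8.34 at 7 days. Here Cy3 of the array labelled +/+ was lower than that of the other arrays of its age by 0.62 and 0.67, so the reference values of the ages overlapped. Values in Cy/+ were 7.71 and then 8.29, and the Cy/Cy pool 7.89 and then 8.18. Without Cy3 of the arrays labelled +/+, the reference changed by 0.60, and the change over the pools was 0.49 (adjusted p = 0.0326). Before normalisation the Cy3 signal was 137, 197 and 182 at 3 days and 150, 188 and 195 at 7 days. Raw Cy5 went from 264 to 341 in Cy/+ and from 290 to 309 in Cy/Cy.

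Pax8, its close relative in the renal vesicle and in tubule epithelium, rose by a like amount in all 3 pools. The reference read 10.40, 10.62 and 10.43 at 3 days and 10.77, 11.01 and 11.02 at 7 days. In Cy/+ the values were 10.51 and then 10.96, and in Cy/Cy 10.41 and then 10.81. All 7-day values were above all 3-day values. The changes of 0.45, 0.45 and 0.40 gave an estimate of 0.43 ± 0.07, or 1.35-fold (adjusted p = 0.0317). The raw Cy3 signal was lower at 7 days, 1130 to 1150 against 1220 to 1540. Median raw Cy3 over spots other than controls was 111 to 113 against 149 to 157. The rise in the reference is thus seen only after normalisation. Raw Cy5 went from 2270 to 2440 in Cy/+ and from 2020 to 2120 in Cy/Cy.

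Fgf8, the growth factor that keeps cells of the renal vesicle alive and supports Lhx1, rose by 1.00 ± 0.15 (adjusted p = 0.0307). In the reference it read 6.59, 6.65 and 6.75 at 3 days and 7.68, 8.16 and 8.16 at 7 days. The Cy/+ pool read 6.99 and then 8.10, and the Cy/Cy pool 7.41 and then 7.96. Every 7-day value was above every 3-day value. The reference, Cy/+ and Cy/Cy pools changed by 1.34, 1.10 and 0.55. The spot was dim, with a raw Cy3 signal of 83.6 to 169 on the 6 arrays. With an offset of 16 in place of 50 the change was 1.27, and with the software's signals 1.77 (adjusted p = 0.0750).

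Dll1, the Delta-like ligand of Notch receptors in the comma- and S-shaped bodies, rose by 0.79 ± 0.15, or 1.73-fold (adjusted p = 0.0401). The reference read 7.91, 7.88 and 7.83 at 3 days and 8.69, 8.94 and 8.97 at 7 days. The Cy/+ pool, already at 8.40 at 3 days, reached 8.74, while the Cy/Cy pool went from 7.90 to 8.96. Every 7-day value was again above every 3-day value, but Cy/+ changed by 0.34 only, against 0.99 in the reference and 1.05 in Cy/Cy.

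Lhx1, the LIM homeobox factor of the renal vesicle and the forming tubule, differed between pools and missed the threshold. Its reference levels were 9.21, 9.54 and 9.81 at 3 days and 10.47, 10.68 and 10.72 at 7 days, with no overlap. The Cy/+ pool read 9.04 and then 10.07, and the Cy/Cy pool 10.18 and then 10.35. The 3-day Cy/Cy value was above the 7-day Cy/+ value. The pools changed by 1.10, 1.04 and 0.17, and the estimate was 0.77 ± 0.19 (adjusted p = 0.0620). Without the Cy/Cy pool the change was 1.07 (adjusted p = 0.0489).

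**Figure D1:**
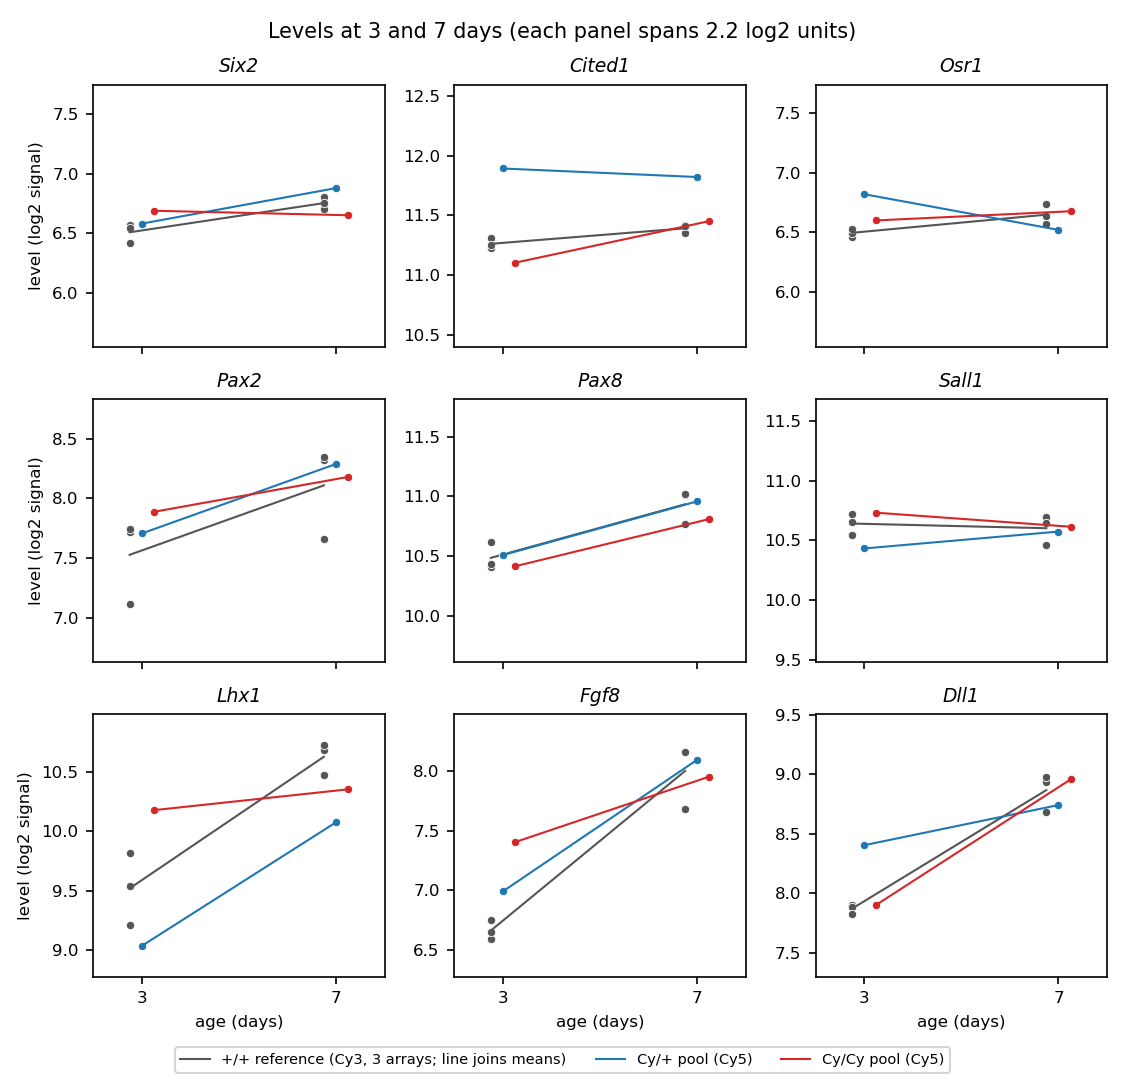
Level of each of the 9 measured genes (log2 of the normalised signal, vertical axis) at 3 and 7 days (horizontal axis), in 9 panels of equal span. Grey points are the +/+ reference on 3 arrays per age, blue the Cy/+ pool and red the Cy/Cy pool, and lines join the ages; Cy5 of the arrays labelled +/+ is not drawn. Pax8, Fgf8 and Dll1 have every 7-day point above every 3-day point, while Sall1 stays between 10.43 and 10.73. The share of all genes with such a separation was not counted.

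In the reference on its own, taken as 3 hybridisations and not as repeats of a group, 2 of the 9 genes were at least 2-fold higher at 7 days with no overlap, Fgf8 at 2.53-fold and Lhx1 at 2.15-fold. Dll1 lay just outside at 1.99-fold. These folds include Cy3 of the arrays labelled +/+. In the reference of the mutant arrays alone, Dll1 changed by 1.10 on the log2 scale, above 2-fold, Fgf8 by 1.46 and Lhx1 by 1.03. Over all genes 0.343% met the same rule upward and 0.304% downward, and no member met it downward. The rule was not rerun over all genes without Cy3 of the arrays labelled +/+. This rule and the fit over the pools share the same Cy3 values. How many of all genes had no overlap between the ages whatever their fold, in the reference or in all values, was not counted. The lack of overlap given for single members above is therefore only a description.

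The calls of the age comparison leaned on single pools and on the processing. Without the reference pool 0 of the 12816 genes passed, members included. That fit had fewer values, and its estimates were 0.42 for Pax8, 0.44 for Pax2, 0.69 for Dll1 and 0.83 for Fgf8. Without the Cy/Cy pool 19 genes passed, with Fgf8 and Lhx1 among them. Without the Cy/+ pool the 4 members passed again, among 1860 genes. They also passed without Cy3 of the arrays labelled +/+, at 0.45 for Pax8, 0.49 for Pax2, 0.83 for Dll1 and 1.04 for Fgf8. Without the pool as a block, which also takes up the dye difference between reference and mutant pools, the 4 calls were lost, with adjusted p from 0.0548 for Fgf8 to 0.0818 for Pax2. With no filter on dim probes Dll1 missed the threshold (adjusted p = 0.0506), and with the scanner software's own signals no gene passed.

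**Figure D2:**
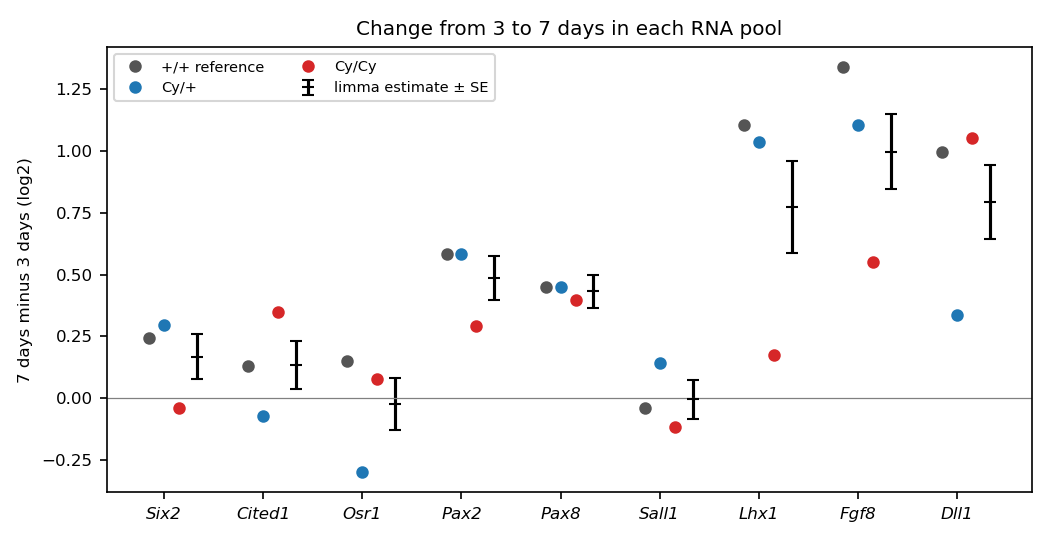
Change from 3 to 7 days (log2, vertical axis) of the 9 genes (horizontal axis) in each pool, the +/+ reference in grey, Cy/+ in blue and Cy/Cy in red, with the limma estimate ± SE in black at the right of each gene. Pax8 shows 3 like changes of 0.40 to 0.45, whereas Lhx1 spreads from 0.17 to 1.10 and Osr1 falls on both sides of 0.

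Most other genes of these programmes were not called with age. Of 22 further progenitor genes 17 were measured, and 2 were higher at 7 days, 1 lower and 14 not called, with a median change of 0.06. Uncx, a homeobox gene of the cap mesenchyme, rose by 0.83 ± 0.09 (adjusted p = 0.0240), with 0.91 in the reference, 0.96 in Cy/+ and 0.61 in Cy/Cy. Fgfr1, a receptor for Fgf signals in progenitors, rose by 0.44 (adjusted p = 0.0498), a call lost in 7 of 10 alternatives, among them the mean of its probes at 0.25 (adjusted p = 0.0873). Hoxc11, a paralogue of the Hox genes that set up the metanephros, fell by 0.42 (adjusted p = 0.0337). Spock2, a matrix proteoglycan, read 0.69 (adjusted p = 0.0506) and Gdnf, the bud-inducing signal of the cap, −0.50 (adjusted p = 0.0554), and neither passed.

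Of 26 further genes of the early nephron 22 were measured, and 0 were higher, 1 lower and 21 not called, with a median change of 0.07. The one that fell was Papss2, which makes the sulphate donor for sulphation, by 0.46 (adjusted p = 0.0302). Wnt4, the inducer of the renal vesicle, read −0.39 (adjusted p = 0.178), with −0.33 in the reference, 0.02 in Cy/+ and −0.85 in Cy/Cy. Genes of the Notch pathway that receive or relay the Dll1 signal did not pass: Notch1 read 0.19, Notch2 0.18, Jag1, another ligand, 0.21, and Hes5, a target, −0.08. Hey1, another target, read 0.35 (adjusted p = 0.147), and Hes1, Heyl and Lfng did not pass either. Dll1 was thus the only gene among these 9 of the Notch pathway that passed.

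Genes of the ureteric tip, the neighbour that signals to the cap, changed in both directions. Of 11 listed 8 were measured, 4 were higher and 1 lower, with a median of 0.31. Ret, the receptor for Gdnf, rose by 2.01 ± 0.16 in its brightest probe (adjusted p = 0.0227) and by 0.95 in the mean of its kept probes (adjusted p = 0.0245). Its co-receptor Gfra1 rose by 1.34 (adjusted p = 0.0240). Etv4 and Etv5, transcription factors downstream of Ret, rose by 1.10 and 0.41, while the tip gene Wnt11 fell by 0.72 (adjusted p = 0.0233). The summed level of the 8 genes was 28500 to 31400 in the 3-day reference and 30400 to 32600 in the 7-day reference. A sum does not show changes of single genes in opposite directions. The part of the tip genes in the member results was not tested.

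Cell cycle genes moved with age as well. All 20 listed were measured, and 10 rose, 0 fell and 10 were not called, with a median of 0.39. Birc5, a subunit of the mitotic passenger complex, rose by 0.87 and Mcm5, part of the replicative helicase, by 0.67. The summed level of the 20 genes was 47200 to 50000 in the reference at 3 days and 71400 to 72500 at 7 days, 67700 and then 87100 in Cy/+, and 59600 and then 74700 in Cy/Cy. The part of these genes in the member results was not tested.

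Erythroid genes were lower at 7 days for 3 of 5 measured, with a median of −0.48, and Alas2 of haem synthesis fell by 0.86 and Epb42 of the red cell membrane by 0.49. Macrophage genes were lower for 3 of 6, with a median of −0.41, among them Cd14 at −0.68 and C1qa at −0.61. Their summed reference levels were 21600 to 26200 at 3 days and 14700 to 16600 at 7 days for erythroid genes, and 6110 to 6460 and then 4970 to 5560 for macrophage genes. Stroma genes had 1 of 9 lower, Pdgfra, a growth factor receptor of stroma, by 0.44, with a list median of −0.03. Proximal tubule genes had 1 of 11 higher, the anion transporter Slc22a6 by 0.49, and 1 lower, the water channel Aqp1 by 0.50. Of 8 liver genes the fibrinogen chain Fgb was higher by 0.41, but by 0.27 in the mean of its probes (adjusted p = 0.0652), and Fga lower by 0.62, and of 7 adrenal genes Cyp11a1 of steroid synthesis was lower by 0.55. With the software's signals, where no gene passed, Epb42 read −0.82 and Cyp11a1 −1.09. No gene of the distal nephron (8 measured), podocyte (6), endothelium (6) or skeletal muscle (8) lists was called. What these lists contribute to the member results was not tested.

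**Figure D3:**
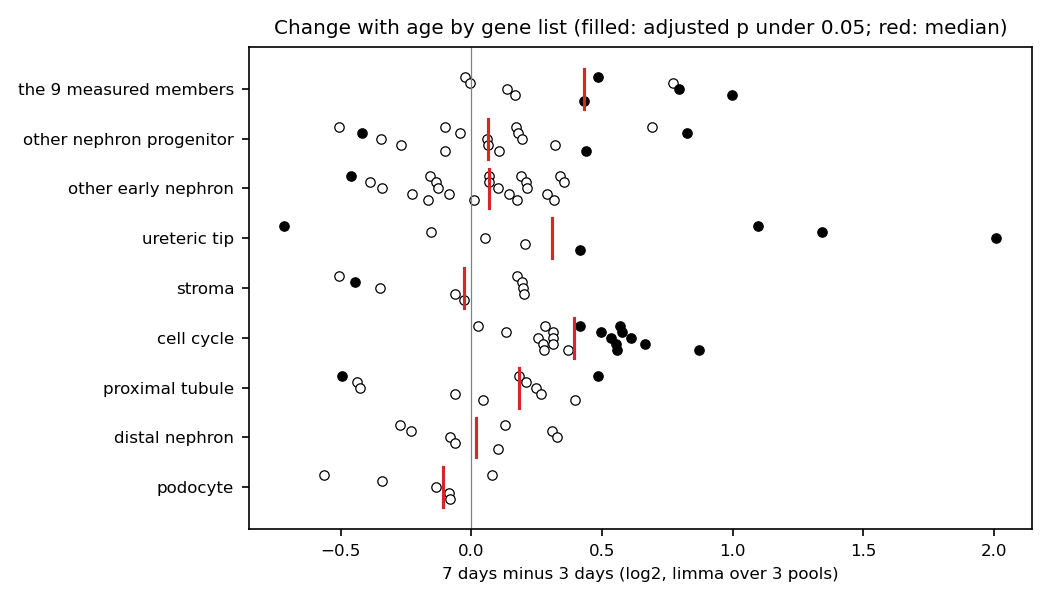
Change from 3 to 7 days (log2, horizontal axis) of each measured gene in the 9 members and in 8 gene lists (rows), from limma over 3 pools. Filled points have an adjusted p under 0.05 and red bars are medians. The members' median of 0.43 lies near that of the 20 cell cycle genes at 0.39, and the other progenitor and early nephron genes have medians of 0.06 and 0.07.

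The next question was whether the mutant pools held these genes at other levels than their +/+ reference. Cited1 was higher in Cy/+, and it was the only one of the 9 genes that passed in either genotype. In Cy/+ 7.28% of 12819 genes passed, 4.45% higher and 2.82% lower. The Cited1 ratio of Cy/+ over reference was 0.58 at 3 days and 0.41 at 7 days on the log2 scale, a mean of 0.49 ± 0.09, or 1.41-fold (adjusted p = 0.0355), higher on both Cy/+ arrays. In Cy/Cy the ratios were −0.15 and 0.04. The direct difference of Cy/Cy from Cy/+ was −0.55 ± 0.12 with an unadjusted p of 0.00425, but the adjusted p was 0.644. The call in Cy/+ was lost without the 3-day Cy/+ array (adjusted p = 0.168), without the 7-day Cy/+ array (0.0506) and with the software's log ratios (0.121). In Cy/+ the 20 cell cycle genes had a median ratio of 0.36, with 3 higher, and the 11 proximal tubule genes one of 0.40, with 5 higher. The 5 erythroid genes had a median of −0.51, with 3 lower, the 8 distal nephron genes −0.37, with 2 lower, and the 6 podocyte genes −0.35, with 1 lower. Across the 17 further progenitor genes measured, the middle Cy/+ ratio was −0.16, 1 being called higher and 1 lower. For the 22 early nephron genes it was −0.0085, 0 being called higher and 1 lower. For the 7 adrenal genes it was 0.25, 2 being called higher. The rise of Cited1 was thus not shared by the further progenitor genes as a list. The part of all these lists in the Cited1 result was not tested.

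Lhx1 read the other way in Cy/+. Its ratios were −0.50 at 3 days and −0.60 at 7 days, with a mean of −0.55 ± 0.17 (adjusted p = 0.0955), and those of Cy/Cy were 0.36 and −0.37. With the slide as a block the Cy/+ value passed (adjusted p = 0.0326). It also passed without the 3-day Cy/Cy array (0.0270) or without the 7-day Cy/Cy array (0.0271), since these arrays enter only the pooled spread. It did not pass without the 3-day Cy/+ array (0.270), without the 7-day Cy/+ array (0.252) or with the software's log ratios (0.222), and with median centring it read −0.17 (0.307). Sall1 in Cy/+ read −0.29 and −0.12, with a mean of −0.21 ± 0.08 and an adjusted p of 0.152.

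The other 6 genes read −0.08 to 0.16 in Cy/+ and did not pass, with 95% intervals that reached from −0.37 to 0.65, both bounds from Fgf8. Six2, for example, had Cy/+ ratios of 0.01 and 0.08 and a mean of 0.05, with an interval of −0.17 to 0.26.

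In Cy/Cy 0% of genes passed (0 of 12819, limma, with 1184 at an unadjusted p under 0.05), and with the software's log ratios also 0. The members' means were −0.11 for Pax8 to 0.22 for Fgf8, and their intervals reached from −0.41 for Lhx1 to 0.73 for Fgf8, so changes of about that size could have gone unseen. Between Cy/Cy and Cy/+ again 0% of genes passed (742 at an unadjusted p under 0.05), and Lhx1 read 0.55 ± 0.24 (adjusted p = 0.847), with an interval of −0.03 to 1.12.

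Fgf8 and Dll1 were above their reference in the 3-day mutant pools and below it in the 7-day ones. For Fgf8 the ratios were 0.34 in Cy/+ and 0.66 in Cy/Cy at 3 days, and −0.07 and −0.21 at 7 days. The change of the ratio was −0.64 ± 0.14 with an unadjusted p of 0.00370 and an adjusted p of 0.300. For Dll1 the ratios were 0.52 and 0.08 at 3 days and −0.20 and −0.02 at 7 days, and the change was −0.41 ± 0.16 (adjusted p = 0.512). Lhx1 changed by −0.42 ± 0.16 (adjusted p = 0.511), with Cy/+ lower at both ages. None of the 9 genes passed, in a fit with 1 residual degree of freedom in which 0.0468% of genes, 6 in number, did. Mutant ratios of opposite sign at the 2 ages, as in Fgf8 and Dll1, were found in 8.98% of all genes.

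On the arrays labelled +/+ the members stood apart from one another. Pax8 was 10.4-fold lower in Cy5 than in the reference at 3 days and 9.26-fold lower at 7 days. Sall1 was 4.16-fold and 3.62-fold lower, and Lhx1 3.57-fold and 4.03-fold lower. Pax2 was 1.24-fold and 1.40-fold lower. Fgf8 was not well above background in Cy5 of either array, where it read 5.84 and 6.12. The mean Cy5 level of the 4 mutant pools over both ages was 7.61, on channel levels that leave out the reference. That is 2.93-fold above 6.06, the mean over these 2 arrays of the lowest level well above background, or of Fgf8 itself where higher. This fold is no lower limit, since probes can miss the background test above that level, as Osr1 did in Cy3 at 6.50 and 6.53.

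Osr1 went the other way on those arrays, 2.68-fold higher at 3 days and 2.57-fold higher at 7 days, with Cy5 levels of 7.88 and 8.10 against 6.52 to 6.82 in the mutant pools. Six2 was 1.20-fold and 1.19-fold higher. Cited1 read −0.56 at 3 days and 0.39 at 7 days on the log2 scale, and Dll1 0.55 and −0.13, so each of these 2 genes read in opposite directions at the ages.

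In the test of the 4 mutant arrays against these 2 arrays, 15.3% of 12816 genes were higher in the mutants and 27.6% lower. Of the members Pax8, Sall1 and Lhx1 were higher in the mutants, by 3.20, 1.86 and 1.65 on the log2 scale, and Osr1 was lower, at −1.29. Fgf8 was also called higher, but its fitted difference is set against values not above background and is no bound, with 1.34 here, 2.01 with an offset of 16 and 4.20 with the software's log ratios. Pax2 was called higher by 0.38 (adjusted p = 0.0419), and this call was lost without any 1 of the 6 arrays (adjusted p from 0.0711 to 0.177). Six2, Cited1 and Dll1 did not pass. These directions hold only as far as the label of the 2 arrays does. On the same arrays all 11 proximal tubule genes and all 8 distal nephron genes were also lower than in the mutants, while all 8 muscle and all 8 liver genes were higher. The part of these tissues in the member values was not tested.

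**Figure D4:**
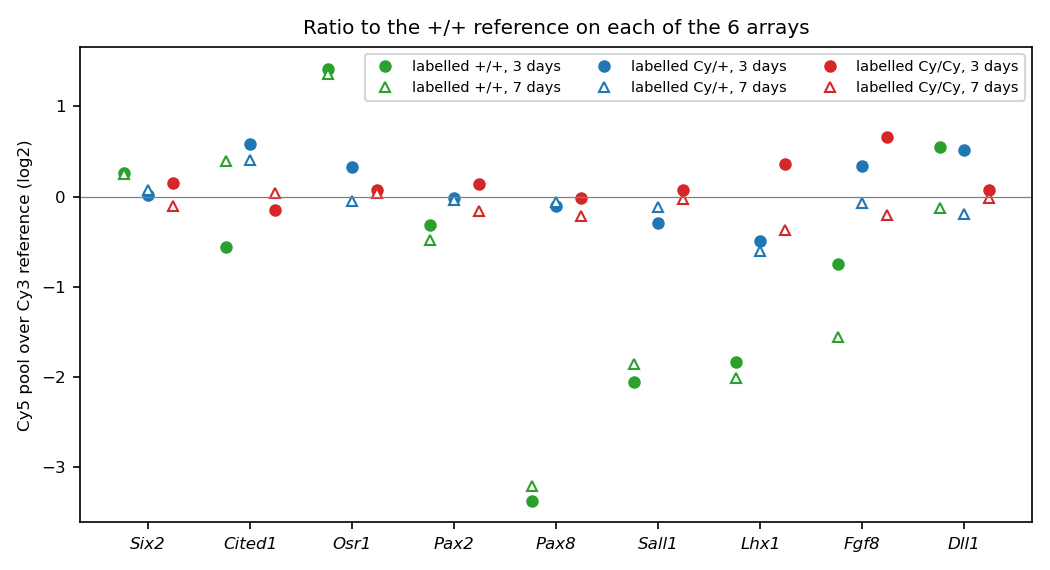
Ratio of the Cy5 pool to the Cy3 +/+ reference (log2, vertical axis) for the 9 genes (horizontal axis) on each of the 6 arrays, with circles for 3 days and triangles for 7 days. Green marks the arrays labelled +/+, blue Cy/+ and red Cy/Cy. The mutant ratios stay between −0.60 and 0.66, and on the arrays labelled +/+ Pax8 lies at −3.38 and −3.21 and Osr1 at 1.42 and 1.36.

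The genes whose levels ran most like those of Six2 over 10 values (6 Cy3 and 4 mutant Cy5) were found by Pearson's r, as a description. They were Gosr2 of Golgi transport (0.973), Ik (0.965), the nuclear import factor Kpnb1 (0.964), the tubulin Tubb4a (0.963), Hnrnpdl (0.959) and Ufd1 of protein degradation (0.958). The 10 values share arrays, slides and the dye difference between channels. None of the 6 genes passed in the age comparison, where they read 0.21 to 0.39. For Fgf8, chosen after its values were seen, the closest were Rad18 of DNA repair (0.983), the somatostatin receptor Sstr2 (0.980), the histone gene Hist1h2bg (0.980), Pttg1, the securin of mitosis (0.979), Setsip (0.979) and Hist1h2bo (0.978). Of these, Rad18, Hist1h2bg, Pttg1 and Hist1h2bo passed in the age comparison, at 0.39, 0.47, 0.66 and 0.59. Sstr2 (0.35) and Setsip (0.42) did not. Their likeness to Fgf8 thus includes the change with age.

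Promoter sequences of RefSeq (rat assembly GRCr8) were found for 8 of the 9 measured genes, all but Sall1. The 250 bases before the start of Fgf8 and of Dll1 are shown because these 2 genes had the largest called changes with age among the members. The letters of 4 motifs were searched on both strands: the GC box GGGCGG, the CCAAT box CCAAT, the TATA box TATAAA and the core that RBPJ, the DNA-binding partner of Notch, recognises, TGGGAA. In Fgf8 (chr1:254539606-254539855, minus strand) capitals mark 9 matches to the GC box, some of which overlap each other, in a stretch with 83.2% G and C. In Dll1 (chr1:64993275-64993524, minus strand), with 61.6% G and C, capitals mark 2 matches to the RBPJ core.
Fgf8: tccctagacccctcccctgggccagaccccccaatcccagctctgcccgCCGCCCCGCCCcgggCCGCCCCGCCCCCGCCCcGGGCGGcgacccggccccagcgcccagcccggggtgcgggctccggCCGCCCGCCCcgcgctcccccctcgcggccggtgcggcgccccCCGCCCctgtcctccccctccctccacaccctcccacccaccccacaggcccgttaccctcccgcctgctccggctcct
Dll1: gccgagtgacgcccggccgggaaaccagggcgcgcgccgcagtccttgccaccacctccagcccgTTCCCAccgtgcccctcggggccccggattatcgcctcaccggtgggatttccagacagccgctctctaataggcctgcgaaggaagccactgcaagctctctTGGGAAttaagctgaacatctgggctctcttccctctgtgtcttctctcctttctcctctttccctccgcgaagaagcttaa

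The GC box letters occurred in 6 of the 8 member promoters (Six2, Cited1, Pax2, Pax8, Lhx1 and Fgf8), against 30.5% of 33469 rat promoters of this length. The RBPJ core occurred in 1 of 8, Dll1, against 22.1%, CCAAT in 2 of 8, Fgf8 and Pax8, against 34%, and the TATA box in 1 of 8, Cited1, against 12.9%. A match of letters is a description of the sequence and does not show a bound site.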

How the data were processed

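Each array file holds scanner output of a single hybridisation with both dyes. Spot signals and local backgrounds, as deposited, are intensity in scanner units without normalization, per the file headers, which name Agilent Feature Extraction 9.5.1.1 and build rn3. The deposited log ratio is log10 of Cy5 over Cy3 after the software's own background subtraction and dye normalization, as those headers record. In the authors' series table the values are identical. The series text names an older software version, and the headers were followed.

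With limma 3.58.1 in R 4.3.3 and version 1.17.8 of data.table, mean signals were corrected by normexp (offset 50) against the local background and normalised by loess within arrays, with control and outlier spots at weight 0. Ratios were taken from these values. Channel levels were normalised between arrays by Aquantile. Probes were kept where 2 or more arrays showed them well above background in Cy3 or Cy5 (30934 of 41012), named through a gene table of assembly GRCr8 (20101 probes matched), and a gene was read by its brightest probe. Each array had 43379 spots other than controls, of which 65.0% to 70.0% were well above background in Cy3 and 66.8% to 74.8% in Cy5. Precision is limited by how few arrays there are.

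Tests were lmFit and eBayes with Benjamini-Hochberg adjustment over all genes and 0.05 as threshold. The age fit used 6 values, 3 pools at 2 ages, with the pool as a block, since a genotype pairs the ages (2 residual degrees of freedom before moderation, prior 3.94). Its reference is the mean Cy3 of 3 arrays, so Cy3 and Cy5 of an array share spots. Cy/+ and Cy/Cy ratios were tested against 0 on the 4 mutant arrays, which leaves out the reference's own spread, and the comparison with the arrays labelled +/+ had age as a term. The tests were also run on simulated data with independent noise for every value. Such data cannot show how the p-values hold where values share spots, a slide or a reference.

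The genes and lists were chosen with earlier results of these data known. Named are all members, up to 6 genes of the progenitor and early nephron lists and up to 2 of every other list with the largest called change with age, and the 6 genes most like Six2. Further genes (Gdnf, Spock2, Wnt4, the other Notch genes, Etv4, Etv5, Wnt11 and the genes most like Fgf8) were named after their values were seen. Alternatives were the software's signals, median centring, the mean of a gene's probes, no filter, an offset of 16 (chosen after seeing the data), a reference without the arrays labelled +/+, the block, the slide and leaving out each pool or array.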

Additional observations from a re-analysis of the deposited data

Results flagged for a closer look

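Fgf8 and Dll1 had mutant ratios on opposite sides of the reference at the 2 ages, above it on both mutant arrays at 3 days and below it on both at 7 days. The change of the ratio with age was −0.64 for Fgf8 (limma, adjusted p = 0.300) and −0.41 for Dll1 (adjusted p = 0.512), so neither difference passed the test. Ratios of opposite sign were found in 8.98% of all genes.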

How the results depend on the processing

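Of the 9 measured members 4 passed in the age comparison, 5 with median centring, 3 with no filter on dim probes, and 4 with the mean of probes, an offset of 16 or a reference without Cy3 of the arrays labelled +/+. With the software's signals 0 passed, among 0 genes in all. Without the pool as a replicate block 0 passed, among 97 genes against 911 with it. Leaving out a pool in turn gave 0 to 4 members and 0 to 1860 genes. For Cy/+ against its reference the count of 1 became 0 with the software's log ratios, 3 with median centring (7296 genes against 933, 87.1% of them higher against 61.2%) and 2 with the slide as a block (1980 genes), and 0 to 2 without 1 array each (88 to 701 genes). For Cy/Cy the count of 0 became 2 with median centring (6350 genes, 83.3% higher). Median centring shifted the median of all genes to 0.30 in Cy/+ and to 0.25 in Cy/Cy, so its calls include that shift. Between Cy/Cy and Cy/+ the members' count stayed at 0 in every alternative run, with 0 to 76 genes called. For the change of the mutant ratio it stayed at 0 with 0 to 151 genes called against 6, and leaving out an array there left no residual degrees of freedom and gave no test. Against the arrays labelled +/+ 5 or 6 members passed, among 3549 to 6426 genes; with the software's log ratios 52.8% of calls were higher in the mutants against 35.6%. Signs turned for values near 0 and for some farther from it. Osr1 with age read 0.0059 with the software's signals and −0.1112 to 0.1146 with a pool left out, and Sall1 with age read 0.0324 with median centring, 0.0016 without Cy3 of the arrays labelled +/+ and −0.0784 to 0.0512 with a pool left out. Sall1 in Cy/+ read 0.2255 with median centring, below that alternative's shift of 0.30. Over the alternatives Fgf8 in Cy/Cy (0.22) ranged from −0.21 to 0.66, Dll1 in Cy/+ (0.16) from −0.20 to 0.52, and Cited1 in the mutants against the arrays labelled +/+ (0.30) from −0.17 to 0.78. Of 43 member values not called, 16 kept their sign in every alternative run and 27 did not. The cause of these differences was not tested. Near background, the offset limits what Six2, Osr1 and Fgf8 can show.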
